A study of Mus musculus with 16 samples.

Results

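The nuclear genes of the mitochondrial respiratory chain were followed across the cortex of tau transgenic mice that kept, lost 1 or lost both copies of Trem2. Members were chosen by a rule on name and mean level, set with earlier results of these data known. The rule took every gene symbol that starts with Nduf, Uqcr, Atp5 or Cox4 to Cox8, or that is Sdha, Sdhb, Sdhc or Sdhd. The mean level over all 16 libraries also had to be at least 1 RPKM (a read count scaled to gene length and to library size). Of 92 such symbols among the 24060 genes listed, 87 reached that level, among 12015 genes in all that did. They comprised 36 genes of complex I, 4 of complex II, 8 of complex III, 16 of complex IV, 14 of complex V and 9 assembly or related genes, which are Ndufaf1 to Ndufaf7, Atp5s and Atp5sl. The symbols bring in genes by name rather than by place in the complex, so Ndufa4 was counted with complex I although its protein is now assigned to complex IV.

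The 16 libraries came from cortical tissue of 16 mice aged 8 to 9 months on a background labelled C57BL/6; C3, with 4 mice (2 females and 2 males) in each of 4 groups. Controls were TREM2+/+ without the P301S transgene, and the other 3 groups were P301S+ TREM2+/+, P301S+ TREM2+/- and P301S+ TREM2-/-. P301S names a mutant form of human tau that aggregates in neurons, and Trem2 encodes a receptor of microglia. The labels state neither the promoter of the transgene nor the kind of Trem2 allele, and no group had Trem2 loss without the transgene. RNA was read from the 3' end of transcripts (QuantSeq), and p-values measure the spread between these 16 libraries.

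The respiratory chain sits in the inner mitochondrial membrane. Complexes I and II pass electrons from NADH and succinate to ubiquinone, complex III passes them on to cytochrome c, complex IV hands them to oxygen, and complex V uses the resulting proton gradient to make ATP. Most subunits are encoded in the nucleus, and the mitochondrial genome encodes the remaining core subunits, which were not analysed here. Cortical neurons depend heavily on this pathway, because ion pumping after synaptic activity consumes ATP. Transcription of the nuclear subunits is known to involve the factors NRF1, YY1 and GABP, an ETS factor.

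The promoters shown here were chosen to show ETS and NRF1 motifs, and the bases printed hold no YY1 match. Uqcr11, a subunit of complex III, and Ndufaf1, an assembly factor of complex I, are named in the comparisons between genotypes, Uqcrh is the most abundant member of complex III, and Cox6a1 is the general copy of a pair of tissue isoforms in complex IV. Each run gives 120 bases before the annotated start (RefSeq, GRCm38.p6), 5′ to 3′ on the gene's strand, with motif matches in capitals. CCGGAAG, or CTTCCGG on the other strand, is the ETS core, and the NRF1 motif is GCGCA and GCGC with any base between them. The positions are chr10:80406822-80406941 for Uqcr11, chr4:116075071-116075190 for Uqcrh, chr2:119662835-119662954 for Ndufaf1 and chr5:115348959-115349078 for Cox6a1, all on the minus strand.
Uqcr11: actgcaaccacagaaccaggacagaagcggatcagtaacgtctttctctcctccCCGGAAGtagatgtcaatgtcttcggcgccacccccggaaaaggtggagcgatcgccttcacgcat
Uqcrh: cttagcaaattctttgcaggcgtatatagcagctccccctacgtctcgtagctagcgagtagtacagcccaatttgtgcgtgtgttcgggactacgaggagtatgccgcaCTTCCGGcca
Ndufaf1: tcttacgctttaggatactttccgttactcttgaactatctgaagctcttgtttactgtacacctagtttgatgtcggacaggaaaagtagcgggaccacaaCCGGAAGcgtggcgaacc
Cox6a1: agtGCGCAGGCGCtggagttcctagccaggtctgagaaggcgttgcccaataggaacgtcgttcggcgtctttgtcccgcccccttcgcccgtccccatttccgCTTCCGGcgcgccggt

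RefSeq promoters were matched for 71 of the 87 members, giving 76 promoters of 300 bases, and both strands were searched. The NRF1 motif stood in 23.7% of them, against 9.61% of the promoters of all genes at or above 1 RPKM and 4.6% of all 32851 promoters in the table. The ETS core stood in 22.4%, against 16.2% and 8.86%, and AAGATGGC, a YY1 motif, in 11.8%, against 4.35% and 2.75%. These are matches of letters, not measured binding. Because the gene set with a mean of at least 1 RPKM already holds more of each motif than the table as a whole, the smaller gap between members and expressed genes is the closer comparison.

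Libraries held 2552467 to 14473181 reads assigned to genes. Trem2 itself stood at 10, 12.1, 20.2 and 7.35 RPKM in controls, 34.0, 30.1, 29.6 and 14.3 in P301S+ TREM2+/+, 4.5, 8.37, 25.2 and 13.6 in P301S+ TREM2+/-, and 1.44, 1.71, 1.46 and 3.75 in P301S+ TREM2-/-. It fell by 3.17 on the log2 scale (SE 0.43) with loss of both copies (limma, adjusted p = 0.04). Transcripts of cortical excitatory neurons were present throughout: Slc17a7, the vesicular glutamate transporter of cortex, was at 64.0 to 274 RPKM in every library, and all 8 listed markers were above 0 in every library.

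One control library, replicate 3 (female), stood apart over all genes and in the respiratory chain genes, the latter shown in the heat map by gene and library. It had the lowest level of all 16 libraries for 49 of the 87 members and the highest for 18. Its members deviated from their 16-library medians by a median of 1.06 in absolute log2 units, against 0.776 over all genes in that library. In the other 15 libraries the same median was 0.067 to 0.363 over members and 0.1 to 0.283 over all genes. Of its members, 32 were more than 1 log2 unit below the median and 13 more than 1 above. The ribosomal RNA transcript Rn45s took 4.45% of its reads, against 1.14 to 2.76% elsewhere.

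**Figure D1:**
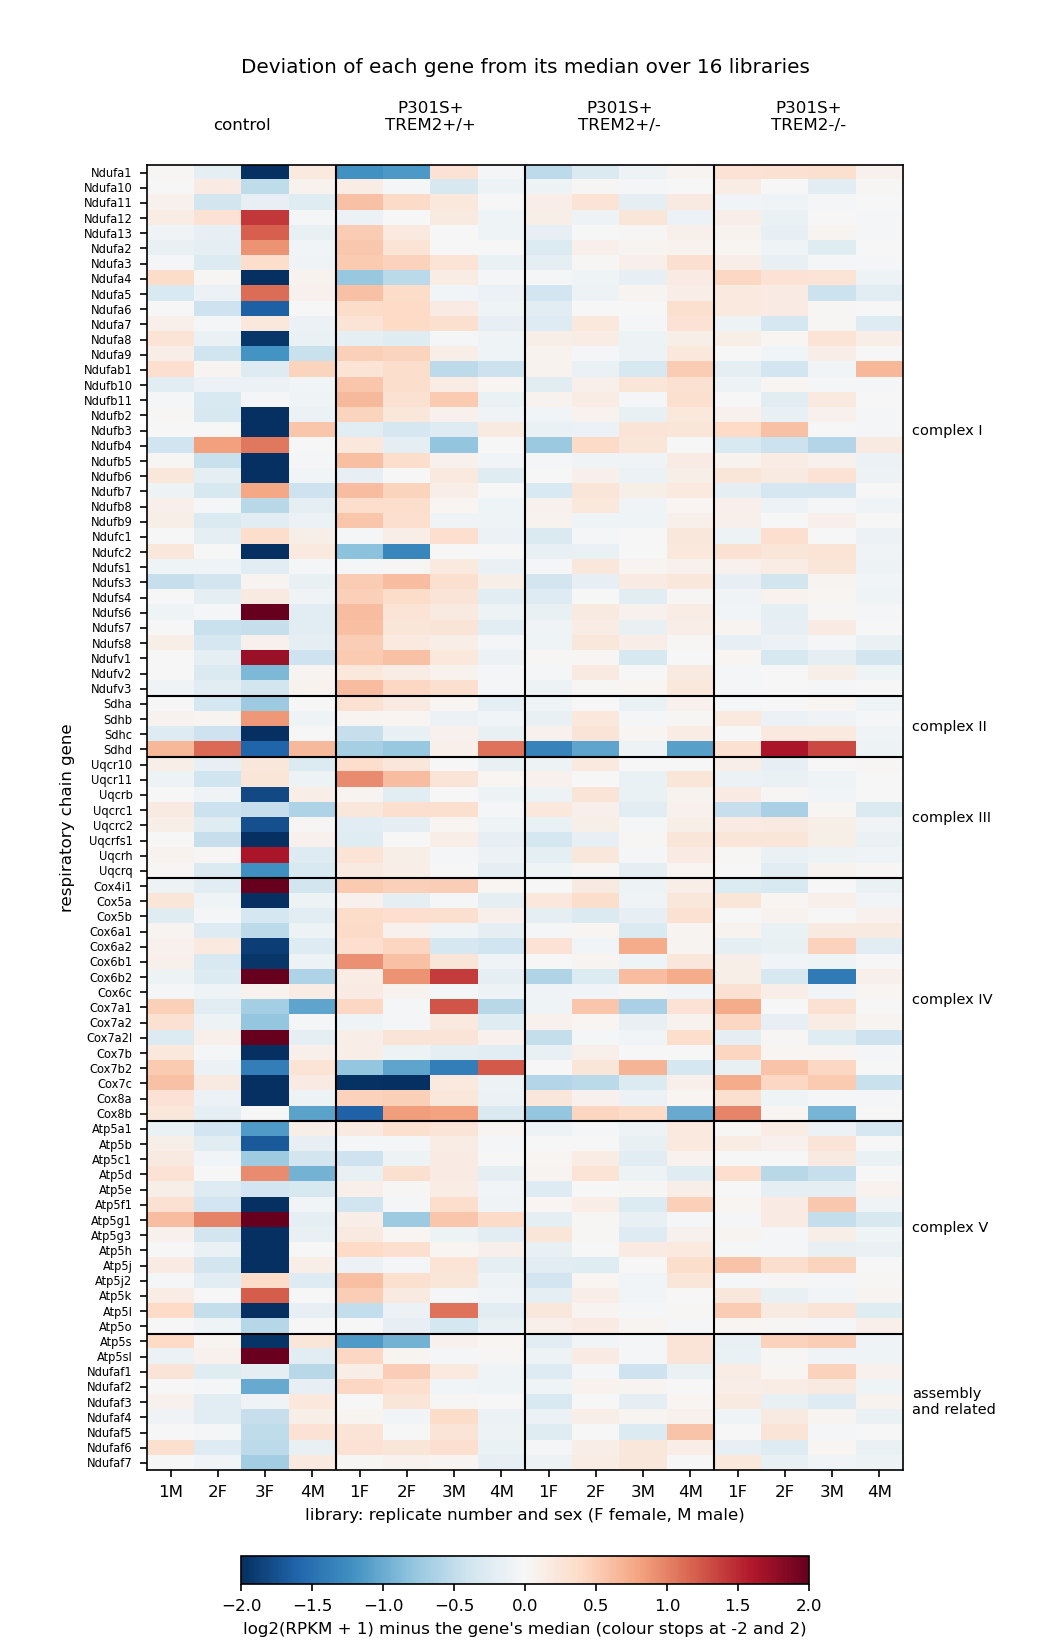
Deviation of log2(RPKM + 1) from the 16-library median for 86 of the 87 genes (vertical axis, grouped by complex) in each library (horizontal axis, replicate number and sex, grouped by genotype). Blue is lower and red higher, with the colour scale stopping at -2 and 2. Control replicate 3 is the column of saturated colours, with 32 genes over 1 log2 unit low and 13 over 1 high.

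Genes of a single complex went in opposite directions in that library. Ndufa1, an accessory subunit of complex I, stood at 12.4 RPKM there against 397 to 1157 in the other 15 libraries, and Cox7c of complex IV at 2.13 against 11.2 to 209. Atp5g3, the most abundant member and a source of the proton-carrying c-ring of ATP synthase, stood at 523 against 4398 to 6661. Conversely Uqcrh, the hinge protein of complex III, was at 3439 against 926 to 1328, Cox4i1, the largest nuclear subunit of complex IV, at 2141 against 370.0 to 687, and Ndufs6 of complex I at 536 against 115 to 207. The values for control replicate 3 lay outside the range of the other 15 libraries for each of these 6 genes, so medians and counts against controls are given with and without it, as are the values of single genes that it moved.

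Both P301S+ TREM2+/+ females shared part of that pattern at a smaller scale. Over the 87 members, the deviations of control replicate 3 correlated with those of replicates 1 and 2 of that group at 0.48 and 0.47 (Pearson, across genes, which are not independent), against 0.355 and 0.307 over all genes. Replicates 1 and 2 correlated with each other at 0.73. The GC content of the last 300 bases of a transcript, where 3' reads fall, moved with these deviations: Spearman's rho over 86 members was 0.58 in control replicate 3, 0.55 and 0.54 in the 2 females, 0.11 and 0.0 in the 2 males of that group, and -0.63 in P301S+ TREM2-/- replicate 2. Over 11121 genes the same values were 0.29, 0.34, 0.38, -0.05, -0.12 and -0.41. Other libraries away from 0 over the members were control replicates 4 (-0.53) and 1 (-0.31), P301S+ TREM2-/- replicate 3 (-0.51) and P301S+ TREM2+/- replicate 2 (0.34), with -0.31, -0.08, -0.29 and 0.2 over all genes. Sequence composition, RNA quality and handling were not recorded separately for the libraries, and their part in the results was not tested.

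**Figure D2:**
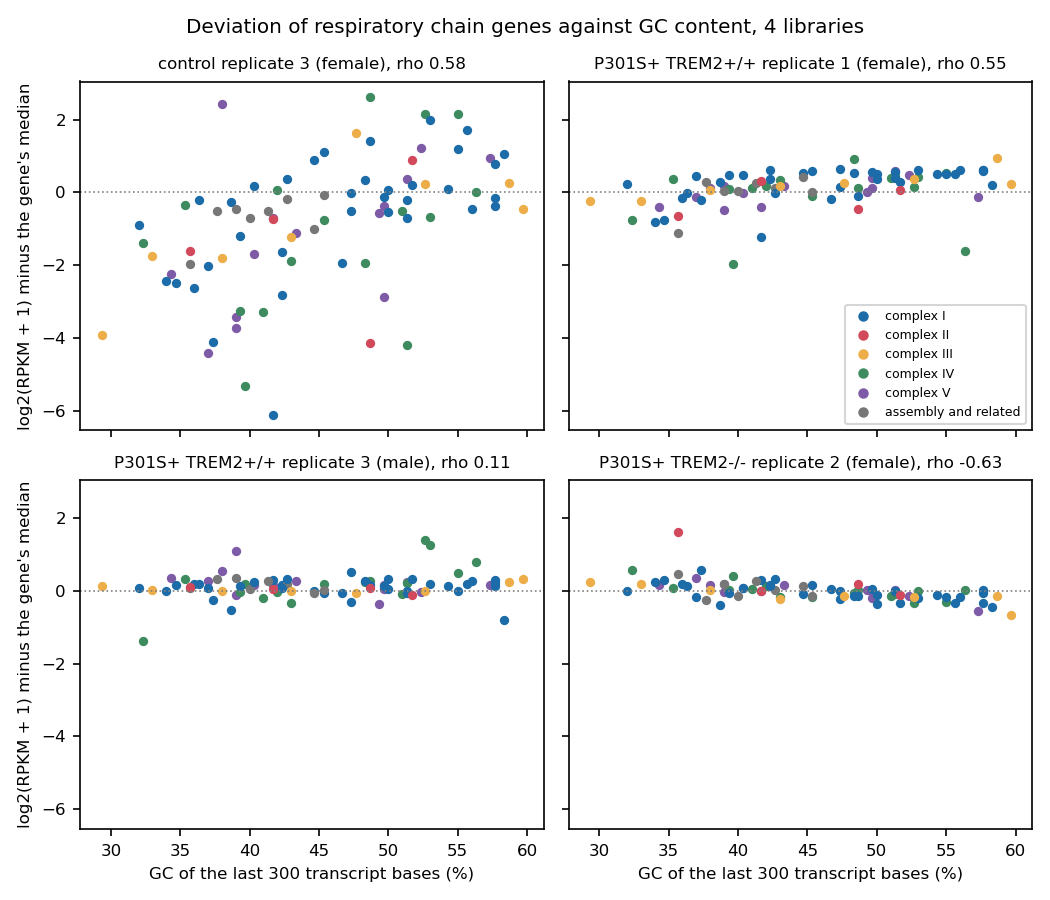
Deviation of log2(RPKM + 1) from each gene's 16-library median (vertical axis) against the GC percentage of the last 300 transcript bases (horizontal axis) for 86 genes in 4 libraries, coloured by complex. Points slope upward in control replicate 3 (rho 0.58) and P301S+ TREM2+/+ replicate 1 (0.55), are flat in replicate 3 of that group (0.11) and slope downward in P301S+ TREM2-/- replicate 2 (-0.63).

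As a share of all reads, the 87 genes took 2.545, 2.085, 1.668 and 2.302% in control replicates 1 to 4, and 2.82, 2.64, 2.544 and 2.244% in P301S+ TREM2+/+. The group means were 2.15% ± 0.372 (SD, n = 4) in controls, 2.56% ± 0.241 in P301S+ TREM2+/+, 2.45% ± 0.152 in P301S+ TREM2+/- and 2.49% ± 0.131 in P301S+ TREM2-/- (n = 4 each). Without replicate 3 the control mean was 2.31% ± 0.23 (SD, n = 3). The ranges of all 4 groups overlapped. Complex V took the largest share in 15 of 16 libraries, 0.646 to 0.872%, but 0.302% in control replicate 3, below complex I (0.593%) and complex IV (0.394%) there.

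**Figure D3:**
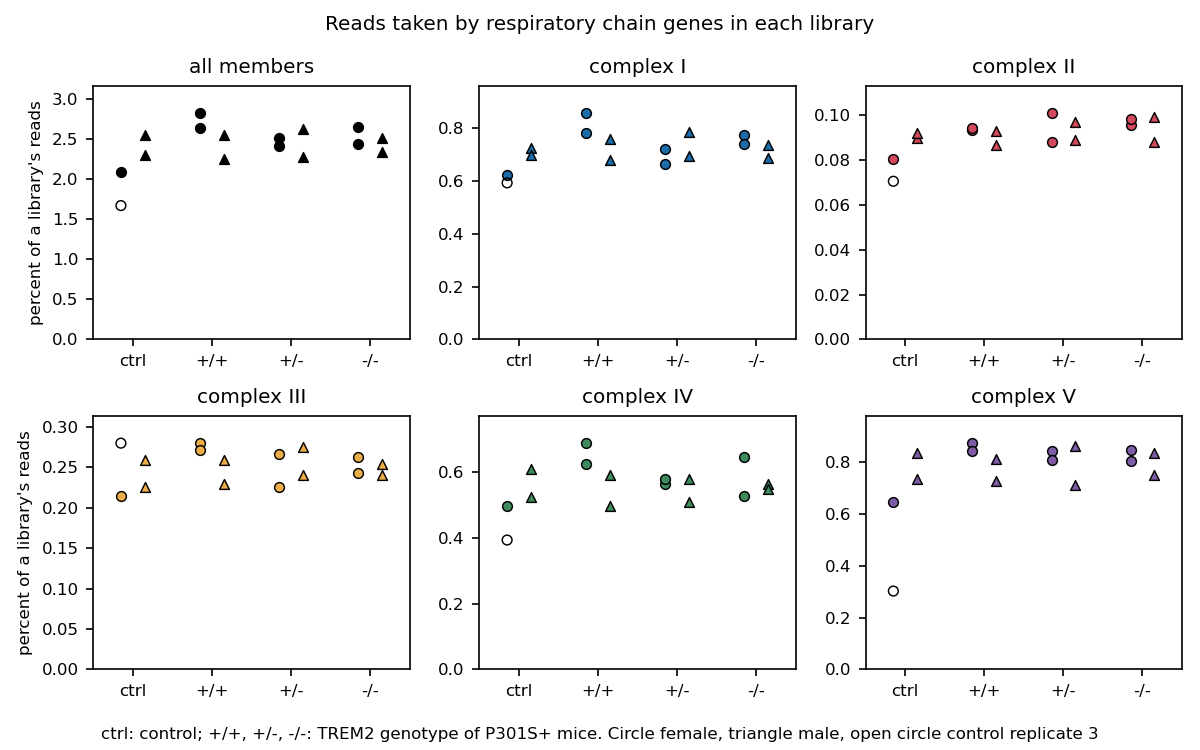
Percentage of a library's assigned reads (vertical axes, starting at 0) taken by all 87 genes and by those of each complex, by genotype (horizontal axis). Circles are females, triangles males and the open circle is control replicate 3. Complex V in control replicate 3 (0.302%) lies below all 15 other libraries (0.646 to 0.872%).

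By mean RPKM over the 16 libraries, the highest member was Atp5g3 in complex V (5281), Cox8a in complex IV (1920), Uqcrh in complex III (1253), Ndufb8 in complex I (846) and Sdhb in complex II (248). Because reads come from transcript ends, dividing by gene length raises short genes on this scale, and the members were short: their median length was 754 bases, against 2938 for all genes in the fit. Catalytic subunits of complex I were lower on it, with Ndufs1, which carries iron-sulphur clusters, at 42.4 and Ndufv1, the NADH-binding flavoprotein subunit, at 112. The ATP synthase F1 subunits Atp5a1 (alpha) and Atp5b (beta) were at 481 and 460.

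The tau transgene comparison, P301S+ TREM2+/+ against control, had more respiratory chain genes higher than lower, but no single member passed the adjusted threshold. In the 16-library fit 68 of 87 were higher (78.2%, against 57.1% of all genes), with a median log2 difference of 0.308 (all genes 0.057). Without control replicate 3, 62 of 87 were higher and the median was 0.186 (all genes 0.015). By complex, the median with and without that library was 0.310 and 0.286 in complex I, 0.057 and 0.015 in complex II, 0.427 and 0.146 in complex III, 0.264 and 0.178 in complex IV, 0.400 and 0.111 in complex V, and 0.171 and 0.129 in the assembly group. Of the complexes with 8 or more genes, complexes III and V had the medians that were furthest apart between the 2 sets of libraries, and complex I the one that was closest.

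limma called 0 of 87 members in this comparison at adjusted p under 0.05 (0.0% of all genes), as did limma-voom on the recovered reads (0.0%). At an unadjusted p under 0.05, limma had 18 members higher, against 9.12% of all genes in that direction, and 1 lower, against 4.67%. In the 15 libraries without control replicate 3 the counts were 24 higher (10.1% of all genes) and 4 lower (11.0%), with 0 called at the adjusted threshold (0.0416%). With libraries weighted by their scatter, 2 were called (1.64% of all genes): Ndufs3 and Uqcr11.

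Ndufs3, a core subunit of the peripheral arm of complex I (chr2:90894634-90904827, GRCm38, minus strand), stood at 10.9, 11.8, 16.1 and 13.8 RPKM in controls and 22.2, 24.1, 19.5 and 16.9 in P301S+ TREM2+/+. The ranges did not overlap. The log2 difference was 0.62 (SE 0.18, limma adjusted p = 0.265), and 0.73 (SE 0.16, adjusted p = 0.107) without control replicate 3. It rested on 28 to 201 reads per library. Of the 50-base stretches in the last 300 bases of its transcript, 53.0% also occurred in 1 other gene, so its level is uncertain.

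Cox5b, a nuclear subunit of complex IV (chr1:36691449-36693681), stood at 27.5, 32.2, 25.5 and 28.1 RPKM in controls and 42.2, 41.3, 41.2 and 35.1 with the transgene. The ranges did not overlap, and control replicate 3 lay close to the other controls. The difference was 0.48 (SE 0.14, limma adjusted p = 0.269), and 0.44 without that library (adjusted p = 0.143). Non-overlapping ranges, higher with the transgene, were found for 5 members, against 3.55% of all genes, among them Ndufs3, Cox5b, Ndufb10 and Atp5h. In the lower direction there were 0, against 1.27%. Leaving out control replicate 3, there were 9 higher, against 7.27% of all genes, with Cox4i1, Uqcr11, Ndufb7 and Ndufa2 added to those 5, and 0 lower, against 5.07%.

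Cox4i1 (chr8:120668222-120674207) depended on 1 library. Its control values were 444, 415, 2141 and 370.0 RPKM, and those of P301S+ TREM2+/+ were 687, 663, 675 and 493. With all controls the log2 difference was 0.01 (SE 0.40). Without replicate 3 it was 0.61 (SE 0.14, limma adjusted p = 0.107), and the 3 remaining controls all lay below the 4 transgenic libraries.

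Uqcr11, a small subunit of complex III (chr10:80402997-80406830) whose promoter is printed above, stood at 309, 253, 393 and 309.7 RPKM in controls and 639, 511, 395 and 343 in P301S+ TREM2+/+. The females of the transgenic group were the 2 highest of all 16 libraries, and the males lay on either side of control replicate 3. Its difference was 0.55 (SE 0.20) with all libraries and 0.65 (SE 0.17, limma adjusted p = 0.119) without control replicate 3. Among the other core subunits, Uqcrc1, a core protein of complex III, differed by 0.54 and 0.51 in the same order, Atp5a1 by 0.59 and 0.34, Sdha, the succinate-oxidising flavoprotein, by 0.36 and 0.20 and Ndufs1 by 0.11 and 0.08.

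In the lower direction there were 19 of 87 members by estimate, and 25 without control replicate 3. In the 3 such genes given here the lower transgenic values lay in the 2 females. Cox7c stood at 30.8 and 11.2 RPKM in P301S+ TREM2+/+ females and 143 and 116 in males, against 188, 141, 2.13 and 140 in controls. Ndufc2, an accessory subunit of complex I (chr7:97400003-97407802), stood at 341 and 241 in those females and 599 and 603 in the males, against 702, 600, 110 and 685 in controls. Atp5s, a coupling factor relative grouped here with the related genes, stood at 4.46, 5.15, 11.7 and 11.2, against 14.6, 11.3, 2.06 and 13.2 in controls. In each of these 3 genes control replicate 3 was lower still. Without it the differences were -1.50 for Cox7c, -0.61 for Ndufc2 and -0.65 for Atp5s (smallest limma adjusted p = 0.161), while Cox7c differed by -0.21, Ndufc2 by -0.02 and Atp5s by -0.17 with it.

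Atp5g1, another c-ring gene, was lower by estimate in all 3 transgenic groups, but its control value rested on 1 library. It stood at 7.15, 9.55, 27.7 and 3.69 RPKM in controls and 4.81, 2.2, 6.81 and 5.91 in P301S+ TREM2+/+. The log2 difference was -0.88 (SE 0.41) and -0.40 (SE 0.30) without control replicate 3. Ndufa12, an accessory subunit of complex I, likewise moved from -0.46 to -0.14 when that library was left out, because its level there, 318 RPKM, lay far above its range of 108 to 146 across the rest.

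**Figure D4:**
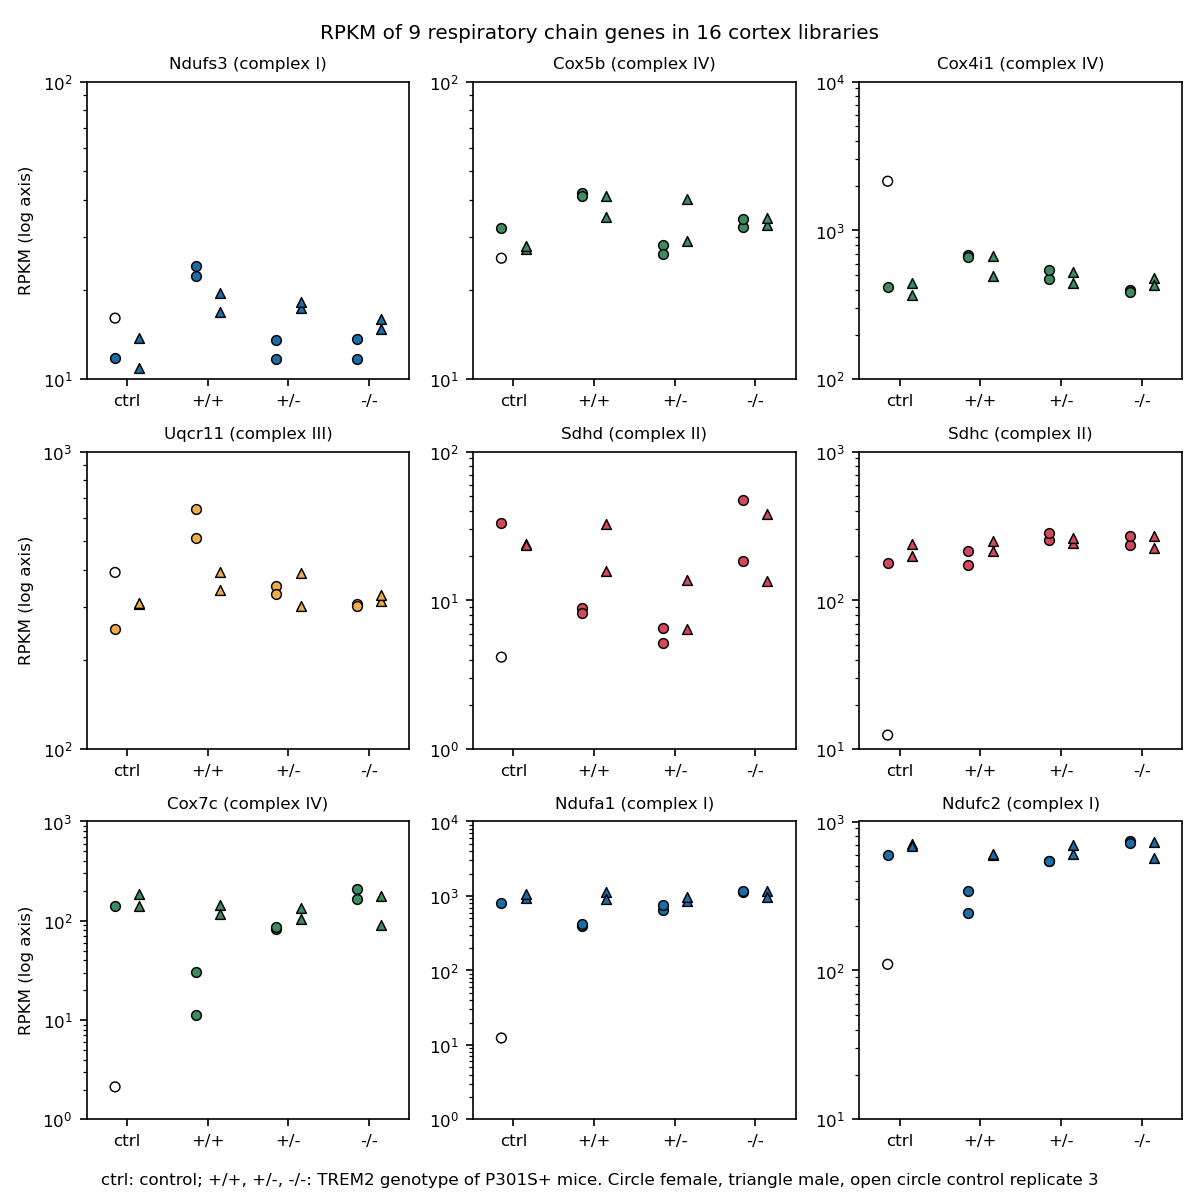
RPKM (vertical axes, log scale, a different range in each panel) of 9 respiratory chain genes in each library, by genotype (horizontal axis). Circles are females, triangles males and the open circle is control replicate 3; every symbol is 1 library. Ndufs3 and Cox5b do not overlap between control and P301S+ TREM2+/+, and the open circle lies far from the other controls for Cox4i1 (2141 RPKM), Sdhc (12.5), Cox7c (2.13) and Ndufa1 (12.4).

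The female and male libraries differed in this comparison. Within females (2 against 2, with control replicate 3 among them) the median log2 difference over the 87 genes was 0.527, and within males 0.036, with 66 and 52 members higher. The difference between these medians was not tested. Leaving out control replicate 3 and both P301S+ TREM2+/+ females together, a choice made after seeing the data, gave a median of 0.072 (all genes 0.010) with 57 of 87 higher. Splitting the members at their median GC gave medians of 0.37 in the lower and 0.27 in the higher 43 with all libraries, and 0.04 and 0.27 without control replicate 3. The higher-GC median was thus the same in both sets of libraries, and the lower-GC median was not.

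Markers of other cells and regions also differed between these groups. Summed over 8 markers of cortical excitatory neurons, controls were at 3290 to 9550 RPKM and P301S+ TREM2+/+ at 2100 to 3780, with a median log2 difference of -0.5. Choroid plexus markers (8 listed, 7 in the fit) summed to 110 to 529 and 214 to 1780 RPKM, and Folr1, Kcne2 and Aqp1 were at 0 in some libraries. Striatal markers (8 listed, 6 in the fit) summed to 232 to 987 and 743 to 1450, with Drd2 at 0 in some libraries. Microglia markers (10 of 10 in the fit) summed to 304 to 1140 and 423 to 684. No marker of these 4 lists that was in the files was at 0 in every library, and limma called 0 of these markers with or without control replicate 3. Oligodendrocyte markers (7 of 7 in the fit, 0 of them at 0 in any library) summed to 479 to 662 and 631 to 882 RPKM, with a median log2 difference of 0.46 and all 7 higher by estimate. Of these, limma called Mag, a myelin glycoprotein, without control replicate 3 (0.86, SE 0.13, adjusted p = 0.034), but not with all libraries (0.29, SE 0.37), and it also called Mag for P301S+ TREM2+/- against control without that library (0.92, SE 0.13, adjusted p = 0.0209). With all libraries 5 microglia markers were higher and 3 excitatory markers lower at an unadjusted p under 0.05 (9.12% and 4.67% of all genes). Without control replicate 3 these counts were 5 and 4 (10.1% and 11.0%). In that fit the median was -0.62 for excitatory markers (0 higher by estimate) and 0.62 for microglia (10 higher). It was 0.41 for oligodendrocytes (6 higher), 0.77 for choroid plexus and 0.87 for striatum. In bulk tissue fewer cells of a type and less RNA per cell cannot be told apart, and the part of tissue make-up in the member values was not tested.

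Loss of 1 Trem2 copy on the tau background, P301S+ TREM2+/- against P301S+ TREM2+/+, was accompanied by small differences. Of 87 members 58 were lower, with a median log2 difference of -0.1 (all genes 0.015). The medians by complex were -0.157 in complex I, -0.045 in II, -0.044 in III, -0.144 in IV and -0.032 in V. limma called 0 members (0.0% of all genes), and limma-voom and library weighting also called 0. Members at an unadjusted p under 0.05 were 0 higher (1.42% of all genes) and 4 lower (1.27%). No member's ranges separated the groups, against 1.4% of all genes higher and 1.46% lower. Within females the median over members was -0.212, and within males 0.029, a difference that was not tested. Leaving out control replicate 3 and both P301S+ TREM2+/+ females, a choice made after seeing the data, gave a median of 0.031. Split at their median GC, the lower 43 members had a median of -0.0 and the higher 43 a median of -0.18, with 21 and 8 higher.

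The members with the smallest p in this comparison were Cox5b and Ndufs3, both named above for the tau transgene comparison. The P301S+ TREM2+/+ libraries are shared by these comparisons. A member that happened to be high there is higher in the transgene comparison and lower in this one at once. Cox5b stood at 28.3, 26.5, 29.0 and 40.4 RPKM in P301S+ TREM2+/-, a difference of -0.37 (SE 0.14), with 3 of 4 libraries below all of P301S+ TREM2+/+. Ndufs3 stood at 11.7, 13.6, 17.4 and 18.2, a difference of -0.43 (SE 0.18). On the higher side were Atp5o, the stalk subunit of ATP synthase that confers oligomycin sensitivity, at 0.24 (SE 0.17) and Cox7b2 at 0.64 (SE 0.47). The limma adjusted p of each of these 4 was 1.0. Control libraries enter this comparison only through the shared spread, and without control replicate 3 the smallest adjusted p over the members was 0.434.

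Loss of both copies, P301S+ TREM2-/- against P301S+ TREM2+/+, had a median of -0.103 over the members (all genes -0.020), with 56 of 87 lower. Complex I held the lowest median (-0.180, 27 of 36 lower), followed by complex III (-0.090), the assembly group (-0.057) and complex V (-0.042), while complexes IV (0.006) and II (0.128) were at or above 0. limma called 0 members (0.00832% of all genes) and limma-voom 0. At an unadjusted p under 0.05, 0 were higher (5.43% of all genes) and 6 lower (4.47%). Leaving out control replicate 3 did not alter the differences themselves, but the shared spread fell, and 8 were higher (13.0%) and 18 lower (10.6%), with 0 called (0.108%) and the smallest adjusted p at 0.0718, for Cox4i1.

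The ranges of 9 members lay wholly lower in P301S+ TREM2-/-, against 4.76% of all genes: Ndufs3, Ndufb7, Ndufa11 and Ndufs8 of complex I, Uqcr11 of complex III, Cox5b, Cox4i1 and Cox7a2l of complex IV by symbol, and Atp5h of complex V. Ndufa8 was the 1 member that lay wholly higher, against 2.86%. Cox4i1 stood at 397, 385, 482 and 433 RPKM, all below the 493 to 687 of P301S+ TREM2+/+, a difference of -0.56 (SE 0.40, limma adjusted p = 0.655; SE 0.13 and 0.0718 without control replicate 3). Uqcr11 stood at 307, 304, 314 and 331 (difference -0.55, SE 0.20), and Ndufs3 at 13.6, 11.7, 16 and 14.8 (difference -0.52, SE 0.18).

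The levels of these 3 genes in P301S+ TREM2-/- overlapped those of control replicates 1, 2 and 4. Leaving out replicate 3, the comparison of P301S+ TREM2-/- with control had a median of 0.074 over the members, with 0 called. Both comparisons share libraries with the tau transgene comparison. Loss of both copies shares the P301S+ TREM2+/+ libraries with it. A member that happened to be high there is higher in the transgene comparison and lower with loss of both copies at once. P301S+ TREM2-/- against control shares only the control libraries.

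In the higher direction the low values again lay in the P301S+ TREM2+/+ females. Ndufa1 (chrX:37187588-37191163) stood at 397 and 416 RPKM in those females, 1133 and 913 in the males, and 1135, 1149, 1157 and 983 in P301S+ TREM2-/-. Cox7c stood at 209, 166, 179 and 90.8 in P301S+ TREM2-/-, a difference of 1.62 (SE 0.95), and Ndufc2 at 743, 713, 727 and 573, a difference of 0.72 (SE 0.43). For Cox7c, 99.2% of 50-base stretches in the last 300 transcript bases also occur in 3 other genes. Its reads cannot be assigned with certainty. The limma adjusted p without control replicate 3 was 0.0787 for Ndufa1 and Ndufc2 and 0.0947 for Cox7c.

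With libraries weighted by their scatter, limma called 5 members for loss of both copies (5.74% of all genes): Cox4i1, Ndufs3 and Uqcr11 lower, and Cox7c and Ndufc2 higher. The share among members, 5 of 87, was near that background. Control replicate 3 received a weight of 0.0448 in that fit, and the other 15 libraries 0.599 to 4.57. Leaving out control replicate 3 and both P301S+ TREM2+/+ females gave a median of 0.039 over the members and 48 of 87 higher, the opposite sign to the 16-library value. Split by GC, the lower 43 members had a median of 0.08 and the higher 43 a median of -0.21.

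**Figure D5:**
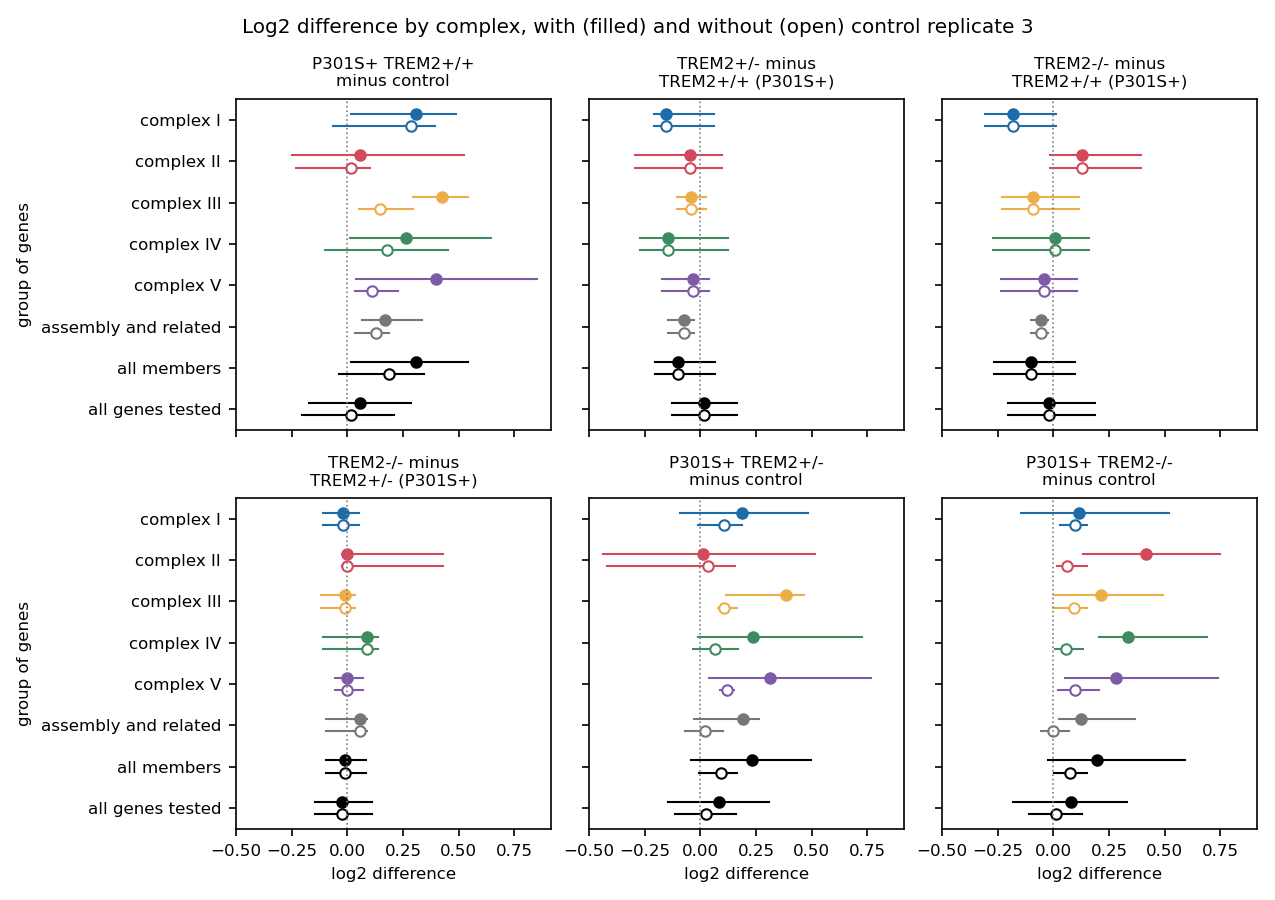
Log2 differences (horizontal axes) in 6 genotype comparisons, for each complex, all 87 genes and all 12015 genes tested (vertical axes). Symbols are medians over genes and lines run from the lower to the upper quartile, filled with all 16 libraries and open without control replicate 3. In the tau transgene comparison the median of complex V moves from 0.400 to 0.111 when that library is left out, and that of complex I from 0.310 to 0.286.

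Complete against partial loss, P301S+ TREM2-/- against P301S+ TREM2+/-, centred on 0 for the respiratory chain. The median was -0.009 (all genes -0.026) with 41 of 87 higher, and the complexes lay between -0.022 (complex I) and 0.087 (complex IV). limma called 0 members (0.0% of all genes, 0.0166% without control replicate 3), as did limma-voom (0.0%) and library weighting (0.0416%). The unadjusted p was under 0.05 for 2 higher (1.94% of all genes) and 0 lower members (1.48%). Non-overlapping ranges were found for 2 members, both higher, Ndufaf1 and Ndufa1 (2.96% of all genes), and for 0 lower (2.41%).

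Sdhd, the membrane anchor of complex II (chr9:50596357-50603812), had the largest difference here. It stood at 5.2, 6.58, 13.7 and 6.4 RPKM in P301S+ TREM2+/- and at 18.4, 47.6, 38.1 and 13.6 in P301S+ TREM2-/-. The 2 groups met at 13.6 and 13.7 RPKM. The log2 difference was 1.68 (SE 0.54, limma adjusted p = 1.0), and without control replicate 3 its SE was 0.42 (adjusted p = 0.52). Sdhd also varied within groups, at 23.9, 33.3, 4.16 and 23.6 in controls and 8.96, 8.29, 15.8 and 32.4 in P301S+ TREM2+/+, and the GC content of its last 300 bases was 35.7%, in the lower range of the members (29.3 to 59.7%).

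Ndufaf1, whose promoter is printed above, stood at 9.47, 11.2, 8.38 and 10.5 RPKM in P301S+ TREM2+/- and 13, 11.9, 16.3 and 12.3 in P301S+ TREM2-/-. Its difference was 0.39 (SE 0.18). Uqcrc1 was lower in P301S+ TREM2-/- by estimate at -0.38 (SE 0.20), and Ndufaf6, an assembly factor of complex I, at -0.24 (SE 0.16). Without control replicate 3 the smallest p values also belonged to Atp5j, a coupling factor of ATP synthase, at 0.38 (SE 0.16) and Ndufb7 at -0.28 (SE 0.15).

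Against control, P301S+ TREM2+/- had a median of 0.233 with all libraries (63 of 87 higher) and 0.093 without control replicate 3 (64 of 87), where the median over all genes was 0.082 and 0.024. limma called 0 members in either fit (0.0% and 0.025% of all genes), and limma-voom called 0 (0.00832%). At an unadjusted p under 0.05 there were 3 higher (6.39% of all genes) and 1 lower (3.2%), and without control replicate 3 there were 2 higher (4.98%) and 1 lower (3.75%). Ranges lay wholly higher for 2 members, Sdhc among them (2.73% of all genes), and wholly lower for 0 (1.66%). With that library left out the ranges lay wholly higher for 3 members, among them Sdhc and Cox4i1 (4.61%), and wholly lower for Sdhd and Cox7c (5.41%).

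Sdhc, the other membrane anchor of complex II (chr1:171127165-171150603), stood at 198, 179, 12.5 and 239.8 RPKM in controls and 254, 284, 244 and 263 in P301S+ TREM2+/-. Its log2 difference was 1.34 (SE 0.62) with all libraries and 0.37 (SE 0.13) without control replicate 3 (limma adjusted p = 0.472). Ndufa9, an accessory subunit of complex I, differed by 0.51 with all libraries and 0.27 without that library, and Atp5g1 by -1.06 and -0.58. Sdhd differed by -1.10 (SE 0.54), and by -1.65 (SE 0.46, limma adjusted p = 0.33) without control replicate 3, where its ranges no longer overlapped. With libraries weighted by their scatter Sdhd was the 1 member called (1.09% of all genes), at -1.73 (SE 0.35, adjusted p = 0.044).

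P301S+ TREM2-/- against control had a median of 0.195 (63 of 87 higher, all genes 0.078) with all libraries and 0.074 (65 of 87, all genes 0.013) without control replicate 3. limma called 0 members (0.0% of all genes, 0.00832% without control replicate 3), and limma-voom (0.00832%) and library weighting (0.0333%) called 0. At an unadjusted p under 0.05, 2 were higher (4.84% of all genes) and 1 lower (4.88%), and the same counts were found without control replicate 3 (2.21 and 2.67%). Cox5b was the 1 member with non-overlapping ranges, with and without control replicate 3 (2.25 and 3.03% of all genes in the higher direction, 1.54 and 2.51% in the lower), at 32.5, 34.4, 32.9 and 34.9 RPKM against 25.5 to 32.2 in controls. The named differences all shrank when control replicate 3 was left out, from 0.61 to 0.22 for Atp5b, 0.49 to 0.25 for Ndufa9, 1.47 to 0.40 for Atp5j, 1.28 to 0.31 for Sdhc, -1.13 to -0.65 for Atp5g1 and -0.66 to -0.46 for Ndufb4.

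The test for any difference among the 4 genotypes called 0 of 87 members (0.0% of all genes), with 6 members at an unadjusted p under 0.05 against 7.95% of all genes. Without control replicate 3 it also called 0 (0.0583% of all genes), with 16 at that level against 17.6%. limma-voom called 0, and the fit with weighted libraries called 1, Sdhd (adjusted p = 0.0458; 0.633% of all genes).

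Sex entered each group as 2 females and 2 males, which allowed the difference between the sexes in each comparison to be tested, female minus male. With all 16 libraries limma called 0 members for any of 4 such differences (0.00832% of all genes for the tau transgene comparison and 0.0% for the others). At an unadjusted p under 0.05 there were 15 members for the tau transgene comparison (13.5% of all genes), 2 for loss of 1 copy (6.48%), 1 for loss of both (7.24%) and 0 for complete against partial loss (2.0%). Without control replicate 3, which leaves 1 female control assumed to vary like the other libraries, the difference was called for 1 member in the tau transgene comparison (2.41% of all genes), 1 for loss of 1 copy (3.19%) and 4 for loss of both (4.71%). The 4 were Cox7c (3.26, SE 0.55, adjusted p = 0.00715), Ndufa1 (1.42, SE 0.21, adjusted p = 0.00401), Ndufc2 (1.24, SE 0.24, adjusted p = 0.0128) and Ndufa4 (0.98, SE 0.24, adjusted p = 0.0428). Ndufa1 was also the member called in the other 2, at -1.03 for the transgene and 0.93 for loss of 1 copy.

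All 4 genes were low in the P301S+ TREM2+/+ females and lower still in control replicate 3. The sex differences of Ndufa1 given above all include those females and are not independent of each other. Ndufa4 stood at 186 and 218 RPKM in those females and 351 and 312 in the males of the group, against 409, 319.6, 55.5 and 332 in controls. The GC content of the last 300 bases was 34.7% for Ndufa4, 34.0% for Ndufc2, 39.7% for Cox7c and 41.7% for Ndufa1, all below the member median of 45.0%. The part of sequence composition in these sex differences was not tested.

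Several subunits exist as paralogs of which 1 copy is known mainly from another tissue, and in the deposited values the general copy was the higher one in each pair given here. Mean levels over the 16 libraries were 598 RPKM for Cox4i1 and 0.817 for Cox4i2, the lung isoform. They were 1337 for Cox6a1 and 24.5 for Cox6a2, the heart and muscle isoform, 1352 for Cox6b1 and 3.85 for Cox6b2, the testis isoform, and 1087 for Cox7a2 and 12 for Cox7a1, a heart and muscle isoform. Cox8a stood at 1920 against 2.16 for Cox8b, a muscle isoform. Ndufa4 stood at 307 against 0.609 for Ndufa4l2. Among the c-ring genes Atp5g3 was listed at 5281, Atp5g1 at 6.19 and Atp5g2 at 0.125. Of the 50-base stretches in the last 300 transcript bases, 98.4% for Atp5g2 (with 2 other genes) and 20.3% for Atp5g1 (with 9) also occur elsewhere. The levels of these 2 genes are therefore uncertain.

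Minor isoforms went both ways in control replicate 3. Cox4i2 was at 5.78 RPKM there and 0.0 to 1.22 in the other 15 libraries, and Cox6b2 at 15.2 there and 0.361 to 8.62 elsewhere. Cox6a2 was lower there, at 5.8 against 17.8 to 40.9, while Cox8b (2.11), Cox7a1 (6.27) and Ndufa4l2 (0.396) lay within the range of the other libraries. Cox7a2l, a factor of supercomplex assembly, was at 180.3 there and 20.4 to 36.9 elsewhere. The 5 symbols below the 1 RPKM minimum were Cox8c, Atp5g2, Ndufs5 (0.371), Ndufa4l2 and Cox4i2 (0.817), and the closest members above it were Cox7b2 (1.77), Cox8b (2.16) and Ndufab1 (2.37). For Ndufs5, a subunit of complex I, 54.6% of the 50-base stretches in the last 300 bases also occur in 1 other gene. Its low level, like that of Atp5g2, is therefore uncertain. Among the 87 members, besides Ndufs3, 2 members shared at least 50% of these stretches with other genes, Cox7c and Atp5l (70.1%, with 11 genes).

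Neighbouring parts of the pathway were followed through lists chosen for function. In the tau transgene comparison, 18 electron carrier and ATP export genes had a median log2 difference of 0.29 with all libraries and 0.17 without control replicate 3, with 13 and 10 higher. The corresponding medians were 0.21 and 0.04 for 18 genes of the tricarboxylic acid cycle, 0.28 and 0.0 for 19 genes of mitochondrial import, 0.27 and 0.09 for 13 of mitophagy and dynamics, 0.07 and 0.09 for 39 assembly factors, 0.06 and -0.01 for 15 biogenesis regulators, and -0.02 and 0.0 for 13 of glycolysis. limma called 0 genes of these 7 lists in any of the 6 comparisons, with or without control replicate 3. In the 16-library tau transgene fit the carrier list had 4 genes higher and 0 lower at an unadjusted p under 0.05, and the assembly factors 4 and 1, where all genes were at 9.12% higher and 4.67% lower. Leaving out control replicate 3, the carriers had 3 and 0 and the assembly factors 3 and 5, against 10.1% and 11.0% of all genes.

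In the carrier list, Cyc1, the cytochrome c1 subunit of complex III that the symbol rule leaves out, stood at 140, 92.1, 90.1 and 102 RPKM in controls and 172, 173, 149 and 113 in P301S+ TREM2+/+, a difference of 0.52 (SE 0.18, limma adjusted p = 0.277), or 0.44 (SE 0.17, adjusted p = 0.172) without control replicate 3. In P301S+ TREM2-/- it stood at 95.1, 105, 119 and 101, a difference of -0.51 from P301S+ TREM2+/+ (SE 0.18, limma adjusted p = 0.426). Atpif1, the inhibitor of ATP synthase, differed by 0.51 and -0.43 in the same 2 comparisons, and by 0.41 (SE 0.16, limma adjusted p = 0.178) in the first of them without control replicate 3. Its highest levels, 1230 and 1120 RPKM, were again in the P301S+ TREM2+/+ females, beside 915 and 747 in the males and 599 to 870 in controls.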

How the data were processed

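The deposited table of each library lists 1 value per gene symbol with no unit named. The authors' values were taken as RPKM, because they are whole multiples of a fixed step per gene length: multiplied back, all 18911 genes above 0 gave whole reads (100.0%, within 1e-05 reads or a relative 3e-07), with 2552467 to 14473181 reads per library. Per the submitters' processing notes STAR, HTSeq, edgeR and limma were used with build mm10; no versions or roles are given in the sources used here. The labels describe QuantSeq 3' libraries, in which reads do not grow with gene length, so RPKM understates long genes. The 5 symbols under a mean of 1 RPKM were left out of the fit.

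Values were analysed as log2(RPKM + 1) for 12015 genes with a mean of at least 1 RPKM, using limma 3.58.1 (R 4.3.3) with genotype and sex, a trended prior and Benjamini-Hochberg adjustment over all 12015 genes, threshold 0.05. The fit had 11 residual degrees of freedom, and 8 for sex differences. A difference on this scale understates the change of low genes. The method was also run on simulated counts with the real library sizes and the same spread for every gene and library. No library stood apart there as control replicate 3 does here, so that run does not show how the method performs on these data. Figures were drawn with matplotlib 3.10.9 in Python 3.11.15.

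The members and all gene lists were chosen with earlier results of these data known. Named genes are, in each comparison, the 2 higher and 2 lower members with the smallest p with and without control replicate 3, members past the threshold, the most abundant member and catalytic subunits of each complex, tissue isoforms, and members next to the minimum. Genes named for non-overlapping ranges, Ndufs6, and the genes called only with weighted libraries fall outside that rule and were chosen after their values were seen. The lists were respiratory chain assembly factors, electron carriers and ATP export, tricarboxylic acid cycle, biogenesis regulators, outer membrane and import, mitophagy and dynamics, glycolysis, and markers of cortical excitatory neurons, interneurons, astrocytes, oligodendrocytes, microglia, pericytes, choroid plexus and striatum. Median log2 differences in the tau transgene comparison were 0.09 for interneurons, 0.09 for astrocytes, 0.46 for oligodendrocytes and 0.1 for pericytes, and 0.68, 0.73 and 0.87 for microglia, choroid plexus and striatum. Transcript GC and shared stretches came from the GRCm38 transcripts (86 of 87 members matched by symbol). Shared stretches were sought in the last 300 bases of each transcript only. The 13 subunits encoded by mitochondrial DNA were not analysed here, and 1 member that enters the counts is not reported here by itself. Alternatives were another pseudocount (0.1), no filter, TMM scaling, median centring, limma-voom on recovered reads, array weights, no sex term, 1 sex at a time, only the groups compared, and leaving out each library.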

Additional observations from a re-analysis of the deposited data

Results flagged for a closer look

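Within the groups of 4, 192 sets of values (42 genes and the read shares of the complexes) were examined for 1 library far from the other 3, by Dixon's criterion at the 95% level. Values were compared as RPKM or percent, not on a log scale, so a very low value is flagged less readily than a very high one. Ndufa1 in controls, at 12.4 RPKM in replicate 3 against 814 to 1054, was not flagged. Chance alone flags about 1 in 20 groups, and 17 were found. Control replicate 3 accounted for 7 of them: Cox4i1 at 2141 RPKM, Cox6b2 at 15.18, Cox7a2l at 180.3, Ndufa12 at 317.5, Ndufv1 at 325.4, Sdhb at 432.9 and Uqcrh at 3439, each above the other 3 controls. In P301S+ TREM2+/+ the share of reads in complex II was low in replicate 4 (0.0868%), as were Cox4i1 (492.6 RPKM) and Cox5b (35.09), while Cox7b2 was high in that library (5.086) and Atp5b was high in replicate 3 (523.8). In P301S+ TREM2+/- replicate 3, Ndufv1 was low (78.52 RPKM) and Sdhd high (13.71). In P301S+ TREM2-/-, Cox6a2 was high in replicate 3 (33.29), Cox8a high in replicate 1 (2345) and Ndufa1 low in replicate 4 (983.3).

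Effects that differed between the sexes by the interaction test, without control replicate 3, were those of Ndufa1 in the tau transgene comparison (-1.03, female minus male, log2), in loss of 1 copy (0.93) and in loss of both copies (1.42), and those of Cox7c (3.26), Ndufa4 (0.98) and Ndufc2 (1.24) in loss of both copies. With all 16 libraries none of the 6 passed the adjusted threshold. The values for Ndufa1 all include the same P301S+ TREM2+/+ females and are not independent.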

How the results depend on the processing

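The reported counts of called members with all 16 libraries were all 0. Of the counts recomputed under the alternatives, 202 were also 0 and 7 were not. The spread between replicates, taken over all 4 groups with control replicate 3 included, was 0.14 after rounding. Of the medians over members, 155 moved by less than that spread and 7 by more. Those 7 were 0.527 in females, 0.036 in males and 0.072 with 3 libraries left out for the tau transgene, 0.403 in females and 0.056 in males for P301S+ TREM2+/- against control, and 0.355 in females and -0.005 in males for P301S+ TREM2-/- against control. Some of the 155 changed sign. With 3 libraries left out, the median for loss of 1 copy went from -0.1 to 0.031. That for loss of both copies went from -0.103 to 0.039. In males the median for loss of 1 copy was 0.029. Of the values for single genes, 976 kept their direction and side of the threshold, 17 changed sign, and 6 passed the threshold only under the alternative. With array weights limma called 2 members in the tau transgene comparison, 5 for loss of both copies, 1 for P301S+ TREM2+/- against control, 1 for any genotype and 2 for a sex difference. The count of members with a sex difference ran from 0 to 54 when single libraries were left out: 54 without control replicate 2, where replicate 3 was the only female control (41.7% of all genes called in the tau transgene comparison), and 4 without control replicate 3. For Cox4i1 in the tau transgene comparison, leaving out 1 library gave -0.25 to 0.61, TMM scaling -0.07, median centring -0.04, limma-voom -0.08 and females alone -0.48. For Ndufc2 there, the range was -0.61 to 0.28, with 0.16 in females. Atp5g1 there was 0.25 in males and 0.12 with 3 libraries left out (control replicate 3 and both P301S+ TREM2+/+ females, chosen after seeing the data), and Atp5s ran from -0.64 to 0.09. Cox7c for loss of both copies was -0.02 in males. The cause of these changes was not tested. The median over members in the tau transgene comparison was 0.186 to 0.397 with 1 library left out, 0.228 under TMM, 0.256 median centred and 0.251 by limma-voom; all genes together shifted by less than 0.1 under each scaling. The median SE over members was 0.24 with all libraries and 0.15 without control replicate 3. No paired analysis was possible because the labels give no replicate numbers shared between groups. The edgeR quasi-likelihood test and DESeq2 were not run. Of the methods for counts, limma-voom alone was applied to the recovered reads. The tests on 1 sex had 2 libraries per group.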
